A study of Mus musculus with 8 samples.

Results

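The genes described here are 5 chemokine genes that interferon is known to induce in many cells, Cxcl10, Cxcl9, Ccl5, Ccl3 and Ccl4, which are 5 of the 27998 genes counted in bone marrow hematopoietic stem and progenitor cells (HSPCs). They were chosen by gene symbol, with earlier results of these data known. Lin- cKit+ (LK) cells, enriched with LK CD150+ CD48- CD34- cells, were sorted from wild-type mice aged 12 to 14 weeks and profiled by droplet single-cell RNA sequencing. The control mice had received 100 µl of PBS, and the treated mice a subcutaneous dose of 50000 IU of IFNα per 20 g, 3, 24 or 72 h before collection. Each time point held 4 mice, told apart by hashtag antibodies within 1 library, so that a time point and its library cannot be told apart. Transcripts were counted as unique molecular identifiers (UMIs), and the level of a gene in a mouse is given in CPM, its UMIs per 1000000 UMIs of the kept cells of that mouse.

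Chemokines are small secreted proteins that attract leukocytes along a gradient. Cxcl10 and Cxcl9 are ligands of Cxcr3, which activated T and NK cells carry, and Cxcl10 is a classical target of type I interferon, whose receptor signals through a complex that includes Stat2 and Irf9 to an interferon-stimulated response element (ISRE). Cxcl9 answers above all to interferon γ, whereas Ccl5, Ccl3 and Ccl4 attract monocytes and T cells, with Ccr1 a receptor of Ccl3 and Ccl5, and their genes respond to NF-κB as well.

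The 5 genes lie in 2 clusters (GENCODE vM21, GRCm38). Cxcl10 (ENSMUSG00000034855, chr5:92346638-92348889) and Cxcl9 (ENSMUSG00000029417, chr5:92321347-92328079) are neighbors on the minus strand with 4 exons each. Cxcl10 lies within the span of Art3, which is on the opposite strand. Ccl5 (ENSMUSG00000035042, chr11:83525778-83530518, minus strand), Ccl3 (ENSMUSG00000000982, chr11:83647844-83649355, minus strand) and Ccl4 (ENSMUSG00000018930, chr11:83662584-83664683, plus strand) have 3 exons each. RefSeq promoters of GRCm38.p6 were matched for Cxcl10, Cxcl9 and Ccl3. The 250 bases before the start are shown for the 2 Cxcr3 ligands, because these neighbors differed most in the number of cells that held them 3 h after IFNα. Capitals mark matches to the motifs searched, on both strands, and both sequences read 5′ to 3′ on the minus strand (chr5:92348890-92349139 for Cxcl10 and chr5:92328080-92328329 for Cxcl9).
Cxcl10: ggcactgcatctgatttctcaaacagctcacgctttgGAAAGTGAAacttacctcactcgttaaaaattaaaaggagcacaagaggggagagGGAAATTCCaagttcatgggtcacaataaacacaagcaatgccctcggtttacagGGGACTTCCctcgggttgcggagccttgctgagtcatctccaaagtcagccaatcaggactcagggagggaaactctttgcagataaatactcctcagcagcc
Cxcl9: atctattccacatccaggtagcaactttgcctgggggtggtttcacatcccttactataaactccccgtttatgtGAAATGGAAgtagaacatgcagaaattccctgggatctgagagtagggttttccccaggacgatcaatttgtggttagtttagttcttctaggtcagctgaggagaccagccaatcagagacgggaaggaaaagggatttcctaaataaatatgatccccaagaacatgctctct

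The Cxcl10 window held an ISRE-like match (GAAANNGAA) at -213 to -205 from the start, a κB-like match (GGANNTTCC) at -158 to -150 and GGGACTTCC at -103 to -95. Of the motifs searched, the Cxcl9 window held only the ISRE-like letters, at -175 to -167, and Ccl3 held them on the opposite strand at -39 to -31. The search took exact letters, so a near match to GGGACTTCC such as gggatttcc in the Cxcl9 window stayed unmarked. In Cxcl10 alone of the 3 the ISRE-like letters were followed by a further A. Of 32851 promoters of the same length, 2342 (7.13%) held the ISRE-like letters, 978 (2.98%) held them followed by A, 1178 (3.59%) held GGANNTTCC and 225 (0.685%) GGGACTTCC. A GAS-like motif (TTCNNNGAA), present in 2306 promoters (7.02%), was in none of the 3 windows.

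After filtering, 10046 cells remained, 2474 in control and 1661, 3462 and 2449 at 3, 24 and 72 h. The 16 mice had 1102706 to 26446327 UMIs, and control mouse 4 stood apart with 58 cells. Median depth was 18964.5 UMIs a cell in the control library and 12017, 18953.5 and 14763 after 3, 24 and 72 h. Only 3 pairs of libraries had a kept barcode in common, 1 each, and 3 to 6 kept barcodes of a library also occurred among all barcodes of another one. Of 22 genes that define mature T, NK, B and plasma cells, dendritic cells, macrophages and stroma, all had a UMI in control and 14, 17 and 17 at 3, 24 and 72 h. Their summed level was 1.81 to 168 CPM in the control mice, 1.43 to 6.78 at 3 h, 2.70 to 8.75 at 24 h and 1.81 to 6.21 at 72 h, so the control library held more RNA of other cells. Those at 0 included Cd3e, Cd3g, Gzma, Ms4a1, Siglech, Cd209a and Cdh5 at 3 h and Cd3e, Ncr1, Gzma, Ms4a1 and Col1a1 at 24 and 72 h.

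Cxcl10 was the member with the largest response. At 3 h it was present in 720 of 1661 cells, against 30 of 2474 control cells. The levels in control mice 1 to 4 were 0.642, 0.699, 1.04 and 50.8 CPM, and those at 3 h were 199, 221, 188 and 198 CPM. All mice at 3 h lay above all control mice. Control mouse 4 was far above the other 3 because of 1 MK-like cell with 56 Cxcl10 UMIs. Cxcl10 rose by 6.87 on the log2 scale at 3 h (SE 0.47, adjusted p = 4.47e-11, edgeR quasi-likelihood test over all 12042 genes tested, 4 mice against 4), and by 8.31 when the cell with most Cxcl10 UMIs of every mouse was left out. A gene was called where the adjusted p was under 0.05 and the log2 change over 1 in size, which held for 2 of the 5 members at 3 h, Cxcl10 and Ccl4, against 6.9% of all genes tested.

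At 24 h the Cxcl10 levels were 5.41, 6.62, 3.17 and 10.8 CPM, and at 72 h 1.22, 0.230, 0.996 and 1.97 CPM. The 24 h mice lay below every 3 h mouse and above 3 of the 4 control mice, while the 72 h mice overlapped with the control mice. Cxcl10 fell by 5.01 between 3 and 24 h (SE 0.35, adjusted p = 8.90e-11) and by 2.58 between 24 and 72 h (SE 0.77, adjusted p = 0.0373). The 24 h change against control was 1.86 (SE 0.65, adjusted p = 0.0352), and it depended on single mice and on the test. It was called in 11 of the 16 fits that left out 1 mouse, lost without control mouse 1, 2 or 3 or 24 h mouse 2 or 4 (1.42 at the lowest), and was 3.1004 without control mouse 4. It was -0.89 with edgeR's likelihood ratio test (adjusted p = 0.458). The count of called members was 2 of 5 at 24 h (2.22% of all genes), 3 of 5 from 3 to 24 h (3.55%) and 2 of 5 from 24 to 72 h (0.756%). At 72 h 0 of 5 passed against control (2.86% of all genes) by edgeR's quasi-likelihood test, with 1 at an unadjusted p under 0.05. Of the 12042 genes tested, 5521 had such a p. The likelihood ratio test called 2, and DESeq2 called 0, giving 1 member no adjusted p.

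**Figure D1:**
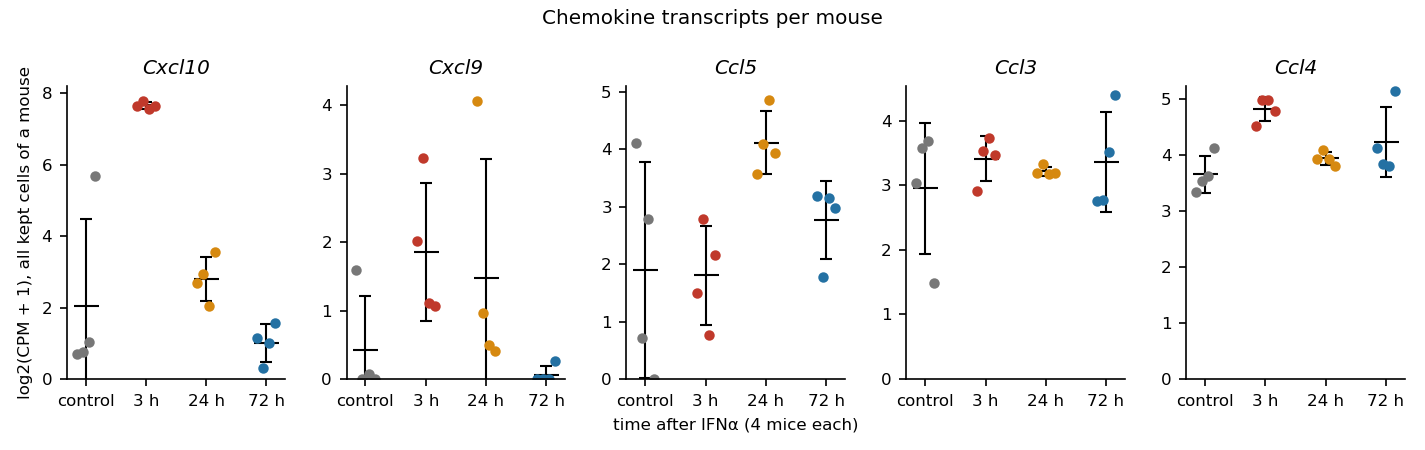
Level of each chemokine gene in every mouse, as log2(CPM + 1) over all kept cells, at control and 3, 24 and 72 h after IFNα, with the mean and SD of the 4 mice. Cxcl10 stands at 188 to 221 CPM in the 3 h mice, and control mouse 4 (50.8 CPM) lies apart from the other control mice.

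Cxcl10 was spread over many cells at 3 h rather than held by a few. Of the 720 cells with a UMI, 240 held 1, 351 held 2 to 9, 119 held 10 to 49 and 10 held 50 or more, and the 10 cells with most UMIs held 15.1% of the 4752 UMIs. At 24 h 109 cells held 525 UMIs, and 10 cells held 69.3% of them. To compare shares of cells across depths, each cell was thinned to 5000 UMIs, and 35, 61, 35 and 68 shallower cells were left out at control, 3, 24 and 72 h. The share of cells with Cxcl10 was then 29.4% ± 2.53 (SD, n = 4) at 3 h and 0.690% ± 0.740 (n = 4) in control (exact two-sided permutation test, p = 0.0286, the smallest that 4 against 4 allow). Without thinning it was 43.3% ± 4.83 and 1.33% ± 0.263. Of the 15 such comparisons of 5 genes at 3 time points, 3 reached this p, Cxcl10 and Cxcl9 at 3 h and Ccl5 at 24 h, and with p-values that cannot go lower none would pass an adjustment over the 15 comparisons. The part of all genes whose shares of cells separate in this way was not computed. By edgeR's quasi-likelihood test, 5581 and 4674 of 12042 genes had an unadjusted p under 0.05 at 3 and 24 h. At 3000 UMIs a cell, Cxcl10 and Cxcl9 at 3 h reached it again, but Ccl5 at 24 h did not (exact permutation test, p = 0.0571) and Ccl4 at 3 h did.

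**Figure D2:**
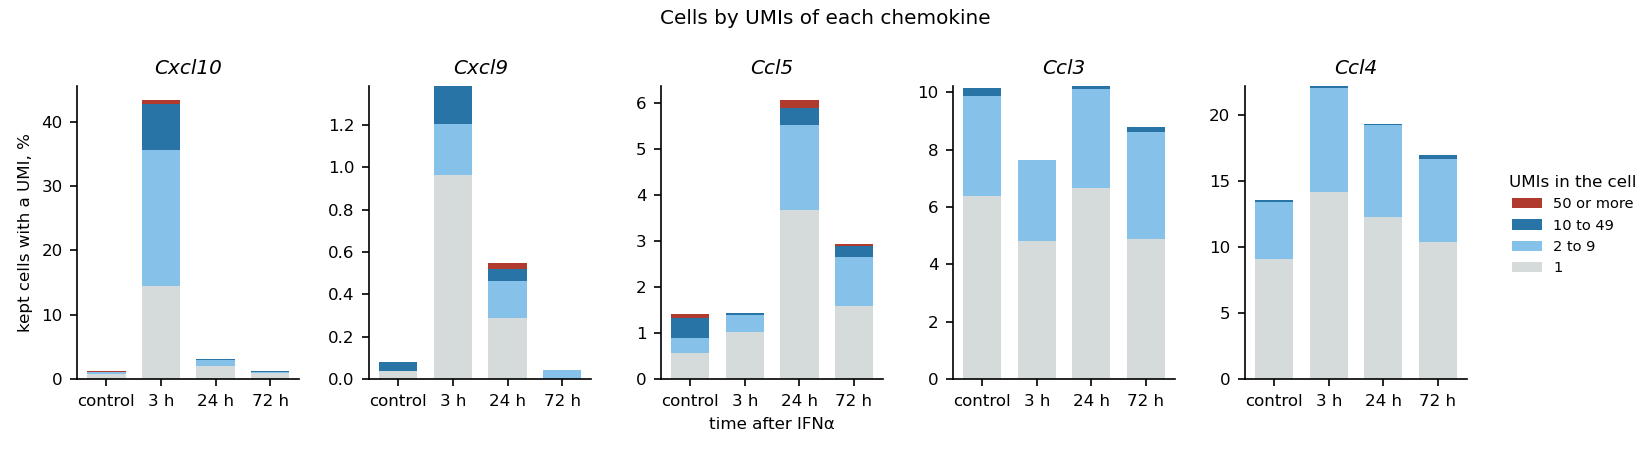
Percent of kept cells that held 1, 2 to 9, 10 to 49 or 50 or more UMIs of each chemokine gene, by time point. Cxcl10 reached 43.3% of cells at 3 h, whereas Cxcl9 stayed at or below 1.38% at every time point.

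Cell classes were set by clustering without the chemokine genes and the interferon-stimulated genes (ISGs). The HSC-like class joined 2 clusters led by Hlf, Mecom and Procr and by Wfdc17, Dntt, Hlf and Gcnt2. Further classes were LMPP-like (Dntt, Flt3, Satb1), monocyte progenitor-like (Ccr2, F13a1, Csf1r, Irf8), neutrophil progenitor-like, MK progenitor-like (Gp1bb, Treml1, Itga2b), erythroid progenitor-like (Car1, hemoglobin genes) and Ba/MC/Eo progenitor-like. Clusters 2, 5, 7 and 13 kept their numbers, since their leading genes named no class by the rule used. Tests by class used mice with at least 10 cells of it, so control mouse 4 entered only the HSC-like fit, with 12 cells, and no 3 h mouse entered the neutrophil-like fit.

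Every class tested held more Cxcl10 at 3 h. In HSC-like cells the control mice were at 0.610, 0, 0 and 0 CPM, from 1 UMI in all, and the 3 h mice at 323, 424, 362 and 364 CPM. The groups were far apart, and the ratio of pooled counts, 1776 UMIs against 1, was 1756, with a 95% counting interval of 315 to 69405. LMPP-like cells at 3 h were at 212, 370, 272 and 329 CPM (1025 UMIs against 2 in control, ratio 1005, interval 277 to 8309), and monocyte-like cells at 341, 239, 164 and 260 CPM (619 against 4, ratio 351, interval 136 to 1291). MK-like cells at 3 h were at 139, 208, 106 and 92.2 CPM, and the 3 control mice in that fit at 0.668, 0.836 and 1.11 CPM. Pooled over all control mice, they held 328 UMIs against 59 (ratio 8.50, interval 6.43 to 11.4). Of these control UMIs, 56 came from the 1 cell of control mouse 4. Erythroid-like cells were lowest, at 94.3, 27.3, 62.8 and 55.7 CPM (152 UMIs against 1, ratio 444, interval 78.6 to 17670.5). Of the unnamed clusters, cluster 5 had 163 UMIs at 3 h and 0 in control. That was 78.8-fold against a floor of 3 counts over the group, with a lower 95% counting limit of 63.4. The quasi-likelihood test called Cxcl10 in all 5 classes fitted at 3 h, with adjusted p from 7.10e-21 in HSC-like to 2.19e-10 in erythroid-like cells, and every fit without 1 mouse called it in each of the 5 classes. In the fit of each class Cxcl10 passed the filter on low counts through the treated mice, so these calls add nothing to the counts above. Of all genes tested, 5.53% were called in HSC-like, 4.84% in LMPP-like, 4.46% in monocyte-like, 4.06% in MK-like and 4.82% in erythroid-like cells. Over the 5 classes, 15 pairs of member and class passed the filter on low counts, Cxcl9 in none. Of these 15, 9 were called at 3 h, 5 of them the pairs of Cxcl10.

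**Figure D3:**
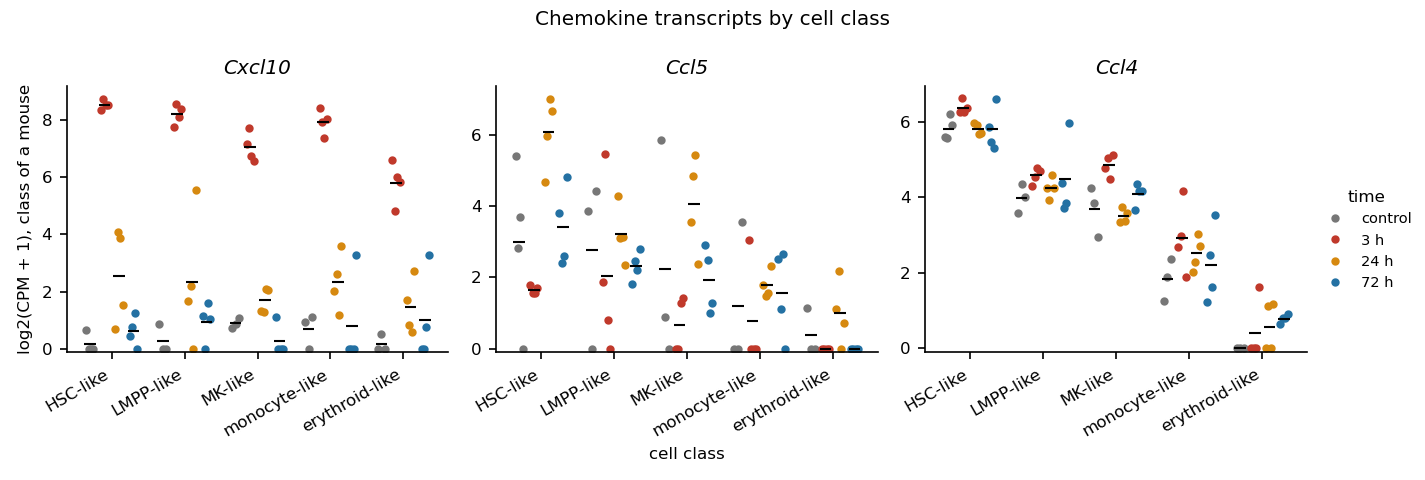
Level of Cxcl10, Ccl5 and Ccl4 in HSC-like, LMPP-like, MK-like, monocyte-like and erythroid-like cells, as log2(CPM + 1), by time point. Points are mice with at least 10 cells of the class, and bars are means. Cxcl10 at 3 h averages 368 CPM in HSC-like and 60.0 CPM in erythroid-like cells, and Ccl5 at 24 h is highest in HSC-like cells.

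Within the 3 h mice, Cxcl10 averaged 368 ± 41.7 CPM in HSC-like, 296 ± 68.9 in LMPP-like, 251 ± 72.7 in monocyte-like, 137 ± 51.8 in MK-like and 60.0 ± 27.5 in erythroid-like cells (SD, n = 4). With the mouse as a block, Cxcl10 was lower than in HSC-like cells, with log2 differences of -1.43 in MK-like (SE 0.16, adjusted p = 1.80e-10) and -2.55 in erythroid-like cells (SE 0.18, adjusted p = 8.21e-18). The difference of -0.47 in monocyte-like cells was under the fold limit (adjusted p = 0.00371), and LMPP-like cells did not differ beyond the test (-0.29, adjusted p = 0.0695). Of the 12 member and class pairs, 9 were called in this comparison, against 26.4% of all genes for erythroid-like, 8.22% for LMPP-like, 5.49% for MK-like and 18.6% for monocyte-like cells. Of these 9 calls, 2 were Ccl3 and Ccl4 in erythroid-like cells, which held 0 and 1 UMIs of them, so that both genes entered that test only through the classes where they were high and their calls count for nothing. Ccl3 was also below the filter on low counts in the fit of MK-like cells, so its call there counts for nothing either. The change from control to 3 h itself was called different from that of HSC-like cells for 0 of 16 such pairs by edgeR's quasi-likelihood test, the only tool run, with 1 at an unadjusted p under 0.05. For Cxcl10 the log2 differences were -2.22 (SE 3.63) in erythroid-like, -0.67 (SE 2.14) in LMPP-like, -2.97 (SE 2.06) in MK-like and -1.90 (SE 1.82) in monocyte-like cells. With so few control UMIs, the test cannot tell a like from an unlike response of the classes. Of all genes, 0.79% were called for erythroid-like, 0.145% for LMPP-like, 0% for MK-like and 0.724% for monocyte-like cells. An unadjusted p under 0.05 was reached by 1242, 785, 491 and 1038 of 8982 genes, in the same order.

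HSC-like cells held 37.4% of all Cxcl10 UMIs at 3 h and were 31.2% of the cells, LMPP-like cells 21.6% and 13.9%, monocyte-like cells 13.03% and 6.56%, and erythroid-like cells 3.199% and 7.53%. Per cell and not scaled to depth, monocyte-like and LMPP-like cells thus held more Cxcl10 UMIs than HSC-like cells, unlike the order by CPM. Their median depths at 3 h were 23364 and 14538 UMIs. After thinning, 206 of 483 HSC-like cells (42.7%) held Cxcl10 at 3 h, against 71 of 226 LMPP-like (31.4%), 39 of 109 monocyte-like (35.8%), 46 of 209 MK-like (22.01%) and 17 of 123 erythroid-like cells (13.8%). Before thinning the shares were 49.03% of HSC-like and 32% of erythroid-like cells, whose median depths were 8734.5 and 19106 UMIs. Control shares were 0 of 399 HSC-like and 0 of 248 erythroid-like cells, which allow up to 0.752% and 1.21%. The 407 barcodes at 3 h that had no hashtag and under 700 genes held 11 Cxcl10 UMIs in 9 of them, or 43.3 CPM, within the range of the erythroid-like cells of the 4 mice (27.3 to 94.3 CPM), and the part of free RNA in the erythroid-like level was not tested. HSC-like cells held 1776 Cxcl10 and 391 Ccl4 UMIs, and erythroid-like cells 152 and 1. Within the HSC-like class, pooled Cxcl10 was 518 CPM in the cluster led by Hlf, Mecom and Procr and 286 CPM in the other one, with Cxcl10 in 50% and 48.3% of their cells.

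At 24 h Cxcl10 in HSC-like cells was 0.611, 15.98, 13.6 and 1.93 CPM, or 100 UMIs against 1 in control (ratio 45.6, interval 8.01 to 1821). It was called there (adjusted p = 0.00119), as in all 16 fits without 1 mouse. The lowest 24 h mouse was level with the highest control mouse. As at 3 h, Cxcl10 was in the fit of each class through the treated mice, so its 24 h calls add nothing to the counts. With each time point fitted alone with control, the quasi-likelihood test still called Ccl5 in HSC-like cells at 24 h (adjusted p = 0.0019). In that setting Cxcl10 was called at 24 h in no class. The filter on low counts was set anew there without the 3 h mice, however, and a gene below it was not tested. The lack of a Cxcl10 call is therefore not read as a lost call. In LMPP-like cells the 24 h mice were at 2.19, 3.61, 0 and 45.4 CPM, and 149 of the 156 UMIs of mouse 4 came from 1 cell. That call (adjusted p = 0.0170) and the call in monocyte-like cells (2.90, SE 0.82, adjusted p = 0.0270) were lost when the cell with most Cxcl10 UMIs of each mouse was left out (adjusted p = 0.0603 and 0.380), and when chemokine genes and ISGs were kept for clustering (adjusted p = 0.964 and 0.0553). Of the 15 pairs, 4 were called at 24 h, the 3 of Cxcl10 and Ccl5 in HSC-like cells, against 0.812% of all genes in HSC-like, 1.39% in LMPP-like, 1.13% in monocyte-like, 0.482% in MK-like and 1.8% in erythroid-like cells. At 72 h 0 of 15 were called by the quasi-likelihood test, with 3 at an unadjusted p under 0.05, 2 by the likelihood ratio test and 0 by DESeq2, which gave 4 no adjusted p. The shares of all genes called at 72 h were 0.801%, 1.01%, 0.997%, 0.585% and 0.824% in the same order of classes. Again in that order, 1606 of 9733, 1608 of 9490, 1444 of 8726, 1312 of 8722 and 1576 of 8616 genes had an unadjusted p under 0.05.

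Cxcl9, next to Cxcl10 in the genome, was rare throughout. The control mice were at 2.03, 0, 0.0547 and 0 CPM, the 3 h mice at 3.06, 8.36, 1.17 and 1.10, the 24 h mice at 15.7, 0.945, 0.413 and 0.326, and the 72 h mice at 0, 0, 0 and 0.197 CPM. Control mouse 1 and 24 h mouse 1 stood far above their groups, each through 1 cell, an HSC-like cell with 38 of the 39 control UMIs and a monocyte-like cell with 196 of the 247 UMIs at 24 h. No change against control was called, at 3 h 2.30 (SE 1.30, adjusted p = 0.173) and at 24 h 2.45 (SE 1.09, adjusted p = 0.0990). The call of a fall from 24 to 72 h (adjusted p = 0.0488) was kept in 7 of 16 fits without 1 mouse, and with 2 UMIs in 1 cell at 72 h its fitted size is not given. The number of cells with Cxcl9 was less dependent on single cells, with 2, 23, 19 and 1 cells in control and at 3, 24 and 72 h. Of the 23 cells at 3 h, however, 16 held 1 UMI. After thinning, the share was 0.646% ± 0.162 at 3 h and 0.0615% ± 0.0710 in control (SD, n = 4, exact permutation test, p = 0.0286), without overlap. The 407 barcodes at 3 h with no hashtag and under 700 genes held 3 Cxcl9 UMIs, or 11.8 CPM, above the level of every 3 h mouse. The part of free RNA in the 3 h share was not tested. Of the 72 UMIs at 3 h, cluster 13, led by the class II genes Cd74, H2-Aa and H2-Eb1, held 38 in 4 of its 6 cells, and HSC-like cells held 20 in 9 of 518 cells. Erythroid-like cells held none, but with 0 of 123 thinned cells a share of up to 2.44% is allowed, and no difference from HSC-like cells was detectable at this depth.

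Ccl5, which attracts T cells and monocytes, was highest at 24 h, where most of its UMIs but not most of the cells that held it were HSC-like. Over all cells the control mice were at 16.2, 0.640, 5.90 and 0 CPM, the 3 h mice at 1.84, 5.91, 0.701 and 3.48, the 24 h mice at 10.9, 16.2, 28.1 and 14.4, and the 72 h mice at 8.15, 2.41, 7.88 and 6.88 CPM. Every 24 h mouse lay above every 3 h mouse and every 72 h mouse, but control mouse 1 overlapped with the 24 h group. Ccl5 rose by 2.55 from 3 to 24 h (SE 0.67, adjusted p = 0.00595), which all 16 fits without 1 mouse called. The change from control to 24 h was 1.23 (SE 0.45, adjusted p = 0.0458), called in 6 of those 16 fits (0.74 to 2.44), and at 3 h it was -1.32 (SE 0.77, adjusted p = 0.188). Cells with at least 2 UMIs of the 22 genes that define other cells held 230 of the 422 control Ccl5 UMIs (54.5%) and 3.95% of those at 24 h. Without these cells the 24 h change was 2.29 (adjusted p = 0.000122).

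In HSC-like cells Ccl5 was 41.5, 6.11, 11.8 and 0 CPM in control, 2.45, 1.92, 1.92 and 2.27 at 3 h, 24.4, 61.9, 128 and 99.4 at 24 h and 13.04, 4.30, 5.04 and 27.1 at 72 h. The 3 h mice did not overlap with the 24 h mice, which were all but separate from the other groups, since 24 h mouse 1 lay below control mouse 1 and 72 h mouse 4. Ccl5 rose by 5.04 between 3 and 24 h (SE 0.64, adjusted p = 1.33e-07), where 4.01% of all genes were called, and fell by 2.61 between 24 and 72 h (SE 0.37, adjusted p = 4.72e-06), where 0.76% were. Cxcl10 was called in both steps as well (-5.45 and -3.75), but it was in this fit through the treated mice, so these calls add nothing to the counts. The 2 HSC-like clusters held 50 and 50 Cxcl10 UMIs at 24 h and 3 and 2 at 72 h. Against control, the 24 h rise of Ccl5 was 2.02 (SE 0.39, adjusted p = 0.000649), called without any 1 mouse (1.69 to 3.18). It was not called when labels were transferred with no correction (1.23, adjusted p = 0.104, with LMPP-like cells at 1.66 in place of -0.28) or without cells that held 2 or more UMIs of longer lists of other-cell genes (1.35, adjusted p = 0.258). The 3 h change was -3.02 (SE 0.92, adjusted p = 0.0172), and this call was lost in 2 of 16 fits without 1 mouse and without the cells with defining genes of other cells (-2.51, adjusted p = 0.0669), without cells of the longer lists (-2.67, adjusted p = 0.0942) and with chemokine genes and ISGs kept for clustering (-2.21, adjusted p = 0.0873). At 24 h the pooled Ccl5 levels of the 2 HSC-like clusters were unlike, but they were not compared across mice. A few cells with many UMIs, given below, weigh on these sums. The one led by Wfdc17, Dntt, Hlf and Gcnt2 held 636 Ccl5 UMIs (pooled 94.0 CPM, 10.3% of its cells). The one led by Hlf, Mecom and Procr held 191 (52.2 CPM, 8.07% of its cells). Together HSC-like cells held 64.1% of all Ccl5 UMIs at 24 h and were 23.02% of the cells. The transcript was in few of them, 75 of 797 cells with 827 UMIs, out of 210 cells with Ccl5 in all, and 3 HSC-like cells of mice 3, 4 and 2 held 220, 166 and 121 UMIs, with no UMI of a defining gene. After thinning, 5.89% of HSC-like and 2.96% of LMPP-like cells held Ccl5 at 24 h. Over all cells the thinned share was 2.87% ± 0.999 at 24 h and 0.685% ± 0.567 in control (SD, n = 4, exact permutation test, p = 0.0286), without overlap. At 3000 UMIs a cell the groups overlapped, with the lowest 24 h mouse at 1.307% and the highest control mouse at 1.333%. Erythroid-like cells held 13 UMIs in 6 of 327 cells at 24 h (1.83%), at a median depth of 25645 UMIs, and HSC-like cells, at a median of 12485 UMIs, held Ccl5 in 9.41% before thinning. In MK-like cells Ccl5 was called lower at 3 h (-4.48, SE 1.42, adjusted p = 0.0358), but 85 of the 86 control UMIs came from 1 cell with 24 UMIs of defining genes of other cells, and without control mouse 1 the change was 0.83. Without the cells of defining genes, Ccl5 in MK-like cells was called at 24 h (adjusted p = 4.26e-05), where it was -0.04 with all cells. That filter left at most 1 control UMI, so Ccl5 was in the fit through the treated mice and this call counts for nothing.

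**Figure D4:**
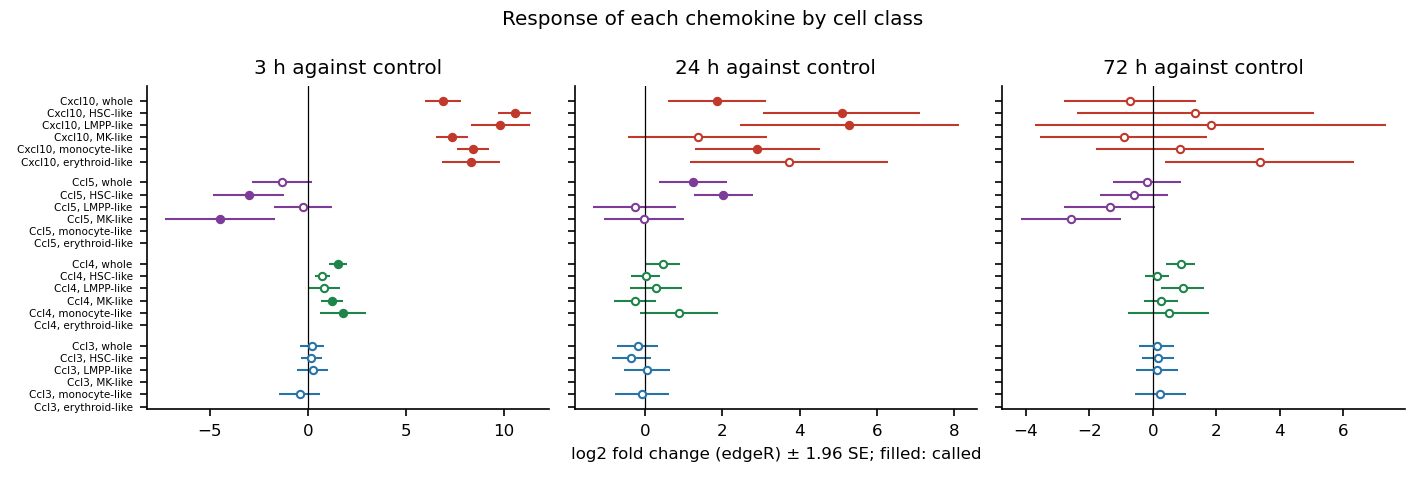
Log2 fold change against control of Cxcl10, Ccl5, Ccl4 and Ccl3 at 3, 24 and 72 h over all cells and in 5 classes, with bars of the 95% interval from the edgeR standard error. Filled points were called, and Ccl5 in HSC-like cells is below control at 3 h (-3.02) and above it at 24 h (2.02).

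Ccl4 rose at 3 h, from a level it already had in control HSPCs. Over all cells the control mice were at 9.15, 10.6, 11.3 and 16.3 CPM, the 3 h mice at 21.8, 30.4, 30.5 and 26.6, the 24 h mice at 14.3, 15.96, 14.3 and 12.8, and the 72 h mice at 16.3, 13.3, 12.95 and 34.1 CPM. The 3 h mice lay above every control and every 24 h mouse, and 72 h mouse 4 stood above the other 72 h mice. Ccl4 rose by 1.54 at 3 h (SE 0.23, adjusted p = 1.55e-05), which all 16 fits without 1 mouse called (1.44 to 1.61), and fell by 1.07 from 3 to 24 h (SE 0.21, adjusted p = 0.000497). The 72 h difference of 0.87 (SE 0.23, adjusted p = 0.00448) was under the fold limit. In a sum over all cells, more cells of a type and more RNA per cell cannot be told apart, and the HSC-like share of cells was 17.5% ± 2.62 in control and 30.3% ± 4.53 at 3 h (SD, n = 4). HSC-like cells held 46.4% of the Ccl4 UMIs in control and 59.1% at 3 h.

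Within HSC-like cells the change of Ccl4 was smaller. The control mice were at 47.6, 46.6, 72.1 and 58.8 CPM, and the 3 h mice at 74.9, 97.1, 75.5 and 81.9 CPM. The groups did not overlap, and the difference of 0.74 (SE 0.20, adjusted p = 0.00625) stayed under the fold limit. With library size alone as the scale, the median over all genes in HSC-like cells at 3 h shifted from -0.04 to -0.24, and the Ccl4 difference was 0.54. MK-like cells were at 18.0, 13.4 and 6.68 CPM in 3 control mice and at 26.6, 32.1, 21.3 and 33.5 CPM at 3 h, without overlap, and Ccl4 was called (1.22, SE 0.28, adjusted p = 0.00199), as in 14 of 15 fits without 1 mouse, but not when labels were transferred with no correction (0.86, adjusted p = 0.102). In monocyte-like cells Ccl4 was 1.40, 2.73 and 4.16 CPM in control and 5.41, 6.82, 17.0 and 2.73 CPM at 3 h, which overlap, and its call (1.79, SE 0.59, adjusted p = 0.0373) held in 7 of 10 fits without 1 mouse and not with DESeq2 (adjusted p = 0.0598). The LMPP-like difference was 0.80 (SE 0.42, adjusted p = 0.208). Within the 3 h mice Ccl4 was called lower than in HSC-like cells in MK-like (-1.51), LMPP-like (-1.73) and monocyte-like (-3.103) cells, and erythroid-like cells had 1 Ccl4 UMI. The thinned share of cells with Ccl4 was 14.1% ± 1.59 at 3 h and 7.79% ± 2.99 in control (SD, n = 4, exact permutation test, p = 0.0571), the groups did not overlap at 3000 UMIs a cell (p = 0.0286), and after thinning to 5000 UMIs 0 of 248 erythroid-like control cells held it, which allows up to 1.21%.

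Ccl3, whose gene lies beside Ccl4, did not pass the test at any time point. The control mice were at 7.22, 10.9, 11.9 and 1.81 CPM, the 3 h mice at 6.53, 10.6, 12.3 and 10.1, the 24 h mice at 8.11, 8.999, 7.99 and 8.10, and the 72 h mice at 5.79, 5.86, 10.4 and 20.0 CPM. All groups overlapped. The differences from control were 0.21 (SE 0.32, adjusted p = 0.635), -0.20 (SE 0.27, adjusted p = 0.626) and 0.12 (SE 0.29, adjusted p = 0.772) at 3, 24 and 72 h. In HSC-like cells Ccl3 averaged 24.0, 27.4, 22.1 and 30.6 CPM from control to 72 h. At 3 h it was lower than in HSC-like cells in MK-like (-3.16) and monocyte-like (-2.55) cells, both called, while LMPP-like cells differed by -0.57 (adjusted p = 0.0957). The MK-like call counts for nothing, since Ccl3 was below the filter on low counts in the fit of that class. The monocyte-like call rests on a low level as well, with Ccl3 in 0 of 109 thinned cells at 3 h, which allows up to 2.75%. None of 123 thinned erythroid-like cells held it at 3 h, which allows up to 2.44%. Outside these classes, 15 of 61 Ba/MC/Eo-like control cells held 77 Ccl3 UMIs, and cluster 13 held 86 in 10 of its 39 control cells. In 72 h mouse 4, which was highest for both Ccl3 and Ccl4, 10 genes that dissociation is known to induce summed to 1927 CPM in HSC-like cells, against 864 to 1014 CPM in the other 72 h mice. Mouse 4 was also highest for these genes at 3 and 24 h, at 1001 and 1157 CPM in HSC-like cells. Control mouse 4 was at 2570 CPM in its 12 HSC-like cells. It was the lowest control mouse for Ccl3, from 2 UMIs, and the highest control mouse for Ccl4 (16.3 CPM). The part of the dissociation genes in these values was not tested.

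A minority of the cells that held a member were seen to hold another. These counts were not thinned, and 235 of the 369 cells with Ccl4 at 3 h held 1 UMI of it. Missed transcripts and depth thus affect how often members are seen together, and how closely they are tied cannot be read from these shares. At 3 h 945 cells held any member, of which 671 held 1, 230 held 2 and 44 held 3 of them. Among HSC-like cells at 3 h, Ccl4 was in 42.9% of the 254 cells with Cxcl10 and in 32.6% of the 264 without it. Ccl4 was in 50% of the 66 HSC-like cells with Ccl3 and in 35.8% of those without. Cells with Cxcl10 also held slightly more ISG transcripts. In HSC-like cells thinned to 5000 UMIs, the summed UMIs of the ISG list averaged 259.8, 265.7, 269.7 and 266.5 in the cells with Cxcl10 of the 4 mice at 3 h, and 230.9, 218.9, 223.9 and 219.8 in those without. For Ccl4 the means were 267.5, 266.6, 258.6 and 269.8 with it and 231.4, 224.3, 238.0 and 226.3 without. Both differences had the same direction in 4 of 4 mice, and they are given as a description.

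A few cells outside the 3 h library carried many Cxcl10 or Cxcl9 UMIs, with ISG levels above their class median to differing degrees. The 24 h LMPP-like cell of mouse 4 with 149 Cxcl10 UMIs had 256 ISG UMIs per 10000, against a median of 170. Of the 612 cells of that class, 31 had more. The 24 h cluster 2 cell of mouse 1 with 51 Cxcl10 UMIs had 223, against a median of 140, and 4 of 326 cells had more. The MK-like cell of control mouse 4 with 56 Cxcl10 UMIs had 580 ISG UMIs per 10000, against a median of 122 in control MK-like cells, and 0 of 274 cells of that class had more. The HSC-like cell of control mouse 1 with 38 Cxcl9 UMIs had 780 ISG UMIs per 10000, against a median of 149, along with 91 class II UMIs and 18 Ccl5 UMIs. A 72 h erythroid-like cell of mouse 4 with 10 Cxcl10 UMIs had 340, against a median of 74.8 in its class. The 24 h HSC-like cells with 220, 166 and 121 Ccl5 UMIs had 256, 188 and 407 ISG UMIs per 10000, against a class median of 216.

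Other genes of the pathway set the members beside the interferon response as a whole. Of 144 listed ISGs apart from the members, 130 were tested, and 114, 53 and 1 were called higher at 3, 24 and 72 h and 0, 0 and 7 lower. Their median log2 change was 2.87, 0.85 and 0.04, against -0.03, 0.00 and 0.02 for all genes. Of 28 regulators of these chemokine genes, 27 were tested, with 6 called higher and 1 lower at 3 h, 1 higher at 24 h and 0 at 72 h, and medians of 0.04, 0.03 and 0.08. Irf7, which amplifies type I interferon signaling, averaged 10.9 CPM in control, 329 at 3 h and 65.3 at 24 h, rising by 5.53 (SE 0.14, adjusted p = 1.61e-19) and 3.07 (SE 0.14, adjusted p = 1.14e-13). Stat2, which type I interferon signaling uses and also induces, averaged 6.03 CPM in control and 41.1 CPM at 3 h (2.88, SE 0.12). At 24 h its difference of 0.54 was under the fold limit.

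Receptors of chemokines changed less. Of 18 receptor genes 6 were tested, with 1 called higher at 3 h, 0 at 24 h and 0 at 72 h, and median changes of -0.52, -0.36 and -0.43. The called gene was Ccrl2, an atypical receptor that binds chemerin, at 3.99 CPM in control and 11.4 CPM at 3 h (1.63, SE 0.14, adjusted p = 2.88e-09). Ccr1 was at 1.84 CPM in control and 1.46 CPM at 3 h (-0.50, SE 0.33, adjusted p = 0.239). Cxcr3, the receptor of Cxcl10 and Cxcl9, had 19, 2, 18 and 4 UMIs in control and at 3, 24 and 72 h, and was below the filter on low counts.

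Of the other chemokine ligands, 7 of the 35 in the table were tested, with 0, 1 and 0 called higher and 1, 0 and 1 lower at 3, 24 and 72 h. Ccl6, which myeloid cells make, fell from 7.36 CPM in control to 2.21 CPM at 3 h (-1.56, SE 0.24, adjusted p = 2.00e-05) and was still lower at 72 h (-1.41, SE 0.20, adjusted p = 9.50e-06). The share of neutrophil-like cells, 7.15% ± 1.07 in control and 1.08% ± 0.550 at 3 h (SD, n = 4), moved in the same direction, and its part in this was not tested. Ccl17, a ligand of Ccr4, was 3.11 CPM in control and 5.25 CPM at 24 h (1.00, SE 0.18, adjusted p = 0.000195). Among 15 tested genes within 200 kb of a member, the test called 3 at the first time point, 1 at 24 h and 2 at 72 h. These were Ccl6, Wfdc17, which rose by 1.62 at 3 h (adjusted p = 1.39e-05), and Wfdc21, which fell at 3 h (-1.25), 24 h (-1.93) and 72 h (-1.19).

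Over the levels of 10 classes and clusters at 4 time points, pooled over all cells of each (n = 40 points, which share 4 libraries and their depths), the profile of Cxcl10 was most like those of Mx1 (Pearson r = 0.918), Gm4955 (0.913) and Eif2ak2 (0.904), of which Mx1 and Eif2ak2 are ISGs. The profile of Ccl5 was most like Tnfrsf13c (0.804), Vsig10 (0.785) and 1190005I06Rik (0.780), that of Ccl3 most like Ipcef1 (0.876), Cd244 (0.850) and Tmem71 (0.843), and that of Ccl4 most like Peli1 (0.877), Pim1 (0.875) and Sorbs3 (0.871). Cxcl9 had no profile above 0.532, that of Gm8953, followed by Il27 (0.486) and 1700024P16Rik (0.480). Cluster 13, where Cxcl9 was found at 3 h, was left out of the profiles. The Cxcl9 points of control HSC-like and 24 h monocyte-like cells came mostly from 1 cell each, with 38 and 196 UMIs. So did the Cxcl10 points of control MK-like and 24 h LMPP-like cells (56 and 149 UMIs) and the Ccl5 point of control MK-like cells (85 UMIs). Among the members, Ccl3 and Ccl4 were most alike (0.723), while Cxcl10 correlated with its neighbor Cxcl9 at 0.290 and with Ccl4 at 0.323.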

How the data were processed

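The matrices that the authors deposited hold raw UMI counts of each gene in each barcode (Cell Ranger 3.1.0, mm10, per the labels), with hashtag calls per barcode from Seurat, a hashtag count total and a margin score, of which only the calls were used here. The annotation behind the counts is not given in the sources used here. Barcodes with 1 hashtag, at least 700 genes and at most 5% mitochondrial UMIs were kept. Hashtag multiplets and negatives were removed, while doublets of cells of the same mouse remain. Control cells were clustered with Scanpy 1.11.5 and leidenalg 0.10.2 (500 variable genes, 10 principal components, 15 neighbors, resolution 0.8), and labels were transferred over 2000 genes per library. A class needed at least 2 of its markers among 10 leading genes, and more of them than markers of other classes. UMIs were summed per mouse, or mouse and class, and tested with edgeR 4.0.16 in R 4.3.3 (filterByExpr, TMM, quasi-likelihood F test on all mice, Benjamini-Hochberg over all genes), after checks on simulated data. These checks changed only genes with higher expected counts, at a fixed spread. They do not cover genes with few UMIs or with most UMIs in 1 cell. Intervals and floors (3 counts) cover counting error only. The replicate is the mouse, but each time point was 1 library. Depth was 1102706 to 26446327 UMIs per mouse. DESeq2 1.42.0, other scales and filters, and fits without 1 mouse or without doubtful cells were the alternatives. Named besides the members were called chemokine ligands, the 3 receptors and regulators with the largest called change at 3 h, Cxcr3 and Ccr1, called neighbors within 200 kb and the 3 most similar profiles. Some genes that this rule or the marker lists hold are not reported here. Members and lists were chosen with earlier results of these data known.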

Additional observations from a re-analysis of the deposited data

Results flagged for a closer look

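Of 40 groups of 4 mice, 10 had a mouse far from its group by Dixon's criterion, which chance alone meets in about 1 in 20 groups. In 3 of the 10 the other 3 mice were at 0, where 1 cell is enough and that rate does not apply. Over all cells, Cxcl10 in control mouse 4 was 50.78 CPM, with the next mouse at 1.039 CPM. Cxcl9 was highest in control mouse 1 (2.033 CPM, next 0.05467), in 24 h mouse 1 (15.69 CPM, next 0.9453) and in 72 h mouse 4 (0.1966 CPM, the others at 0). Ccl3 in 24 h mouse 2 was 8.999 CPM (next 8.108), and Ccl4 in 72 h mouse 4 was 34.12 CPM (next 16.29). In HSC-like cells, control mouse 1 was highest for Cxcl10 (0.6098 CPM) and Cxcl9 (23.17 CPM), with the others at 0, 3 h mouse 1 was highest for Cxcl9 (15.96 CPM, next 2.274) and lowest for Ccl3 (20.86 CPM, next 29.34). The values of Cxcl10 in control mouse 4 and of Cxcl9 in control mouse 1 and 24 h mouse 1 come mostly from 1 cell each.

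Cxcl10 was also present in the 3 h barcodes that were not kept, which enter no comparison. It was at 197.4 CPM there, with 375 UMIs in 96 of 793 barcodes, against 0.6486 CPM in the control barcodes that were not kept, where 3 of 716 held it. Of the 375 UMIs, 201 were in 67 barcodes with more than 1 hashtag (183 CPM) and 11 in 407 barcodes with no hashtag and under 700 genes (43.3 CPM).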

How the results depend on the processing

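Filters on doubtful cells were chosen after seeing the data. They left out cells with 2 or more UMIs of genes that define other cells, barcodes shared between libraries, cluster 13, or the cell with most UMIs of the member in every mouse. The planned filter on all genes of the other-cell lists removed 61.1 to 81.5% of the cells of a time point and says little. The calls of Cxcl10 and Ccl4 at 3 h over all cells, 2 of 5 members, numbered 2 in the other settings as well, except 1 with DESeq2, which gave Cxcl10 no adjusted p, 3 with the replicate block and 2 to 3 without 1 mouse. The 9 calls within the 3 h mice numbered 6 without cells of the other-cell lists, 8 with chemokine genes and ISGs kept among the clustering features, 13 without the filter on low counts and 9 in the other settings.

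The 2 calls over all cells at 24 h were the least stable. Their count was 0 with the likelihood ratio test, DESeq2 or each time point alone with control, 1 without the cell with most UMIs, and 0 to 2 without 1 mouse (0 without control mouse 2 or 3 or 24 h mouse 2). At 72 h, where 0 were called, the likelihood ratio test called 2, and fits without 1 mouse 0 to 1. By class, the 9 calls at 3 h became 3 without cells of the other-cell lists, 6 with each time point alone or labels transferred with no correction, 7 with DESeq2, with chemokine genes and ISGs kept for clustering, or without cells of defining genes or the cell with most UMIs, and 6 to 9 without 1 mouse (6 without control mouse 1 or 3 h mouse 3). The 4 calls at 24 h became 7 without the filter on low counts, 1 with each time point alone, 2 with chemokine genes and ISGs kept among the clustering features, 1 without cells of the other-cell lists, 2 without the cell with most UMIs and 2 to 5 without 1 mouse (2 without control mouse 2 or 24 h mouse 4). The 0 calls at 72 h became 4 without the filter, 2 with the likelihood ratio test and 0 to 1 without 1 mouse. With each time point alone the filter on low counts was set anew. A gene below it, such as Ccl5 in HSC-like cells at 3 h, was not tested and adds no call. The test of the class difference gave 0 to 1 calls without 1 mouse. The shares of cells that passed numbered 9 without thinning and 1 for cells with 2 or more UMIs, against 3. At 3000 UMIs a cell 3 passed too, but Ccl4 at 3 h stood in place of Ccl5 at 24 h.

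Directions turned where a change was small or rested on 1 cell. Over all cells at 24 h, Cxcl10 was -0.89 with the likelihood ratio test, -0.95 with DESeq2 and -0.53 without cells of the other-cell lists, Cxcl9 was -0.20 to 6.68 without 1 mouse (lowest without 24 h mouse 1), and Ccl3 was 0.0339 without cluster 13. At 72 h Cxcl10 was -1.16 to 0.52 without 1 mouse (highest without control mouse 4) and 0.15 without the cell with most UMIs, Cxcl9 was -6.12 to 0.60 without 1 mouse (highest without control mouse 1), and Ccl5 was 0.0723 with the likelihood ratio test, 0.11 with DESeq2, 0.67 without cells of defining genes, 0.10 without cluster 13, -0.67 to 1.04 without 1 mouse (1.04 without control mouse 1 and 0.05 without 72 h mouse 2). Ccl3 at 72 h was -0.39 to 0.36 without 1 mouse (-0.39 without 72 h mouse 4 and -0.04 without control mouse 1), -0.92 without cells of the other-cell lists and -0.00285 with the hashtag number as a block. In MK-like cells Ccl5 at 3 h was -5.04 to 0.83 without 1 mouse (highest without control mouse 1) and 1.42 without cells of defining genes. The cause of these differences was not tested.

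Over all genes, mice of different time points with the same hashtag number showed no clear pairing. Their correlations were -0.059 to 0.114 (median 0.035), against -0.153 to 0.157 (median -0.008) for mice with other numbers. The dissociation genes, however, were highest in mouse 4 at every time point (1327, 629, 641 and 1237 CPM over all cells, from control to 72 h). Whether a shared number stands for shared handling was not tested. With the hashtag number as a replicate block, 3, 2 and 0 members were called over all cells at 3, 24 and 72 h and 7, 5 and 0 by class. The Cxcl10 change over all cells was 6.76 at 3 h and 1.66 at 24 h (adjusted p = 0.0686), and Cxcl9 at 24 h was 2.70 (adjusted p = 0.0109). Not run were the other-cell filter in the monocyte-like and neutrophil-like classes and the neutrophil-like comparison at 3 h, for lack of cells. The few cells with Cxcl9 or Ccl5 and the 58 cells of control mouse 4 set the precision for these genes.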
